A study of Drosophila melanogaster with 8 samples.

Results

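Long stretches of the *Drosophila* chromosome arms in which wild type embryos had little H3K36me3 are described here across wild type and *dkdm4a* mutant embryos. The arms 2L, 3L and 3R were divided into windows of 2 kb with at least 3 probes, and a stretch was kept as a run when at least 10 adjacent windows were all below 0 in the mean of the wild type samples. The runs were thus chosen by their measured wild type H3K36me3 level. The level of a window is the mean log2 ratio of immunoprecipitated (IP) over input DNA minus the median of the array, so that 0 is the middle of an array and not the absence of the mark. The centromere-side 1 Mb of every arm was left out, as were 2 intervals of 3R, those of the Hox complexes. This gave 669 runs with 12900 windows, out of 33837 windows that the rule covers on the 3 arms and 57266 windows on all sequences of the arrays.

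The experiment was H3K36me3 ChIP-chip on chromatin of whole embryos collected from population cages 2 to 4 hr after egg laying, with 2 biological samples per genotype. The mutant line carries the P-element insertion KG04636 in *Kdm4A* (*dKDM4A*) in a *y1 w67c23* stock, and the wild type samples come from a line made from it by precise excision of that element. Each genotype is therefore 1 line with 1 allele, and both lines share the chromosomes of the stock apart from the element and whatever the crosses exchanged. The embryos of a cage are pooled, so that fewer cells with the mark and less of the mark in each cell cannot be told apart. Each sample was hybridized to both slides of a pair of Agilent tiling array designs, with Cy5 for IP DNA and Cy3 for input DNA throughout. The files name no genome build, so positions follow the array files and the runs were assigned no genes. For the same reason the *dKDM4A* gene itself was not examined, and the mutant label was not checked against it.

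H3K36me3 is laid down by methyltransferases that travel with elongating RNA polymerase II, and it marks the bodies of transcribed genes. Silent genes, intergenic sequence and chromatin held inactive by Polycomb proteins carry little of it. dKDM4A is a demethylase that removes methyl groups from H3K36me3, and embryos of this age are in the main wave of activation of their own genome.

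The runs covered 38.1% of the windows of the 3 arms, or 25.8 Mb. On 3R they made up 42.0% of the windows in 255 runs, on 2L 37.5% in 212 runs and on 3L 34.1% in 202 runs. The median run was 15 windows (30 kb) long and the longest was 82 windows (164 kb), with 147 runs of at least 25 windows and 19 of at least 50. Of these 19, 12 lay on 3R, 4 on 3L and 3 on 2L. Neighbouring runs of an arm were a median of 16 windows (32 kb) apart, and the widest gap was 584 kb.

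**Figure D1:**
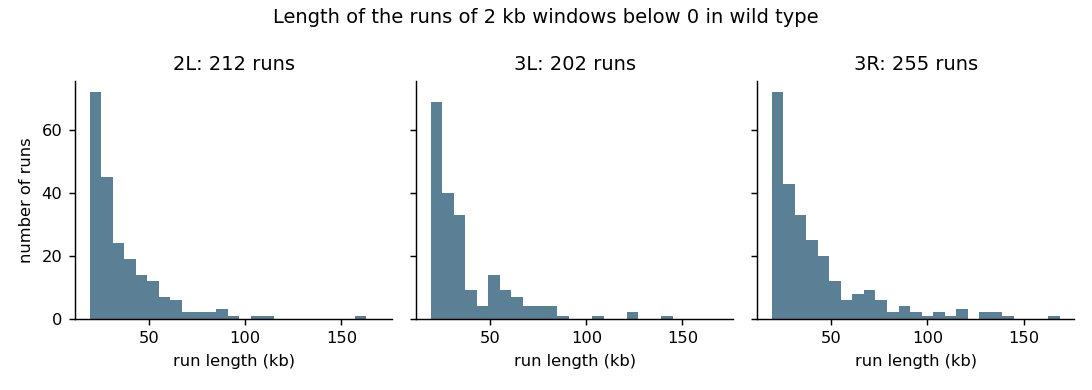
Number of runs (vertical axis) by length in kb (horizontal axis, bins of 3 windows) on 2L, 3L and 3R. Of the 669 runs, 301 (45.0%) had 10 to 14 windows, the median was 30 kb, and the tail reached 164 kb on 3R, 160 kb on 2L and 142 kb on 3L.

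The runs were unevenly spread along the arms. Over 68 bins of 1 Mb with at least 400 windows, the share of windows inside runs was lowest between 16 and 17 Mb of 3L, at 12.2%, and highest between 14 and 15 Mb of 2L, at 66.9%. The bin from 26 to 27 Mb of 3R followed with 59.8% and that from 15 to 16 Mb of 2L with 58.9%. The median mutant level of all windows was -0.35 in the densest bin on 2L and -0.36 in that of 3R. In the bin of 3L with the fewest run windows it was -0.07.

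The wild type levels of the runs are a description, since they chose the runs. Averaged over the 12900 run windows, the level was -0.47 in wild type replicate 1 and -0.43 in wild type replicate 2. The means of single runs lay between -0.70 and -0.20, with a median of -0.44. The highest window mean inside a run was just under 0 and the lowest was -1.27, and 644 windows lay between -0.1 and 0. At the length threshold, the 73 runs of exactly 10 windows had a median wild type level of -0.41, and the 86 stretches of 9 windows just outside it had one of -0.40.

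A level below the median of an array need not mean that the mark was absent. In the run probes the IP signal was well above background for 90.7% of the probes in wild type replicate 1, 89.7% in mutant replicate 1, 83.8% in wild type replicate 2 and 83.6% in mutant replicate 2. In the other probes of the 3 arms these shares were 93.6%, 92.7%, 88.6% and 88.4%. The median IP brightness of run probes ranged over samples and designs from 60.6 to 86.2 units, against 135 to 186 units for the other probes. The runs are for this reason described as the low part of the H3K36me3 profile, and not as chromatin measured to be free of the mark. The input was also lower in the runs than elsewhere, by -0.25 and -0.26 on the log2 scale in wild type and mutant replicate 1 and by -0.16 and -0.18 in replicate 2. A lower input by itself raises log2 IP/input, and its part in the levels of the runs was not tested.

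The mutant samples took no part in the choice of the runs and show how far these stretches were low in other embryos. Over the run windows the mean level was -0.40 in both mutant samples (mean -0.40 ± 0.005 SD, n = 2). The other windows of the arms had means of 1.29 and 1.55 in mutant replicates 1 and 2. Of the 669 runs, 668 were below 0 in both mutant samples, while 41.5% of all 2415 runs and 10-window blocks of the 3 arms were. Of the run windows, 90.2% were below 0 in both mutant samples, against 55.9% of all windows of the arms. Nearly the whole set of low stretches was therefore low in both genotypes.

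The run that was not below 0 in both was 3R:9910001-9930000, with 10 windows and 85 probes. Its mean level was -0.35 and -0.10 in wild type replicates 1 and 2 and -0.05 and 0.16 in mutant replicates 1 and 2. The mutant samples were both above the wild type samples, and within each replicate the mutant was higher, by 0.31 and 0.26. Of its 10 windows, 8 were higher in the mutant in both replicates, and without its highest window the differences were 0.28 and 0.22. The difference did not pass limma over all runs and blocks (adjusted p = 0.19). It passed in limma with the replicate as a block (adjusted p = 1.88e-05), a fit with 1 residual degree of freedom. That fit passed 11.2% of all runs and blocks as raised and 10.7% as lowered. The wild type values that chose the runs are part of both fits. The run was also the one with the highest mutant level and the largest difference of all 669.

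The level of a low window was related to the length of the stretch that it lay in, and this held in the mutant samples too. The wild type values set the stretch lengths, so the trend in the wild type samples is a description. Over run windows, wild type and mutant levels were correlated, with Pearson's r of 0.48 in replicate 1 and 0.73 in replicate 2. How much of the trend in the mutant follows from the rule was not tested. In mutant replicates 1 and 2, the mean level was -0.26 and -0.19 for windows that were below 0 in wild type on their own. It was -0.32 and -0.29 in stretches of 2 to 4 windows and -0.37 and -0.34 in those of 5 to 9 windows. Within the runs it was -0.38 and -0.36 at 10 to 14 windows, -0.39 and -0.39 at 15 to 24, -0.42 and -0.41 at 25 to 49, and -0.44 and -0.46 at 50 or more. The longest class was thus the lowest in each of the 4 samples. The difference between the classes of runs was small against the spread of single windows in a sample, which had an SD between 0.23 and 0.26 inside the runs. Across the 669 runs, Pearson's r between run length and mean mutant level was -0.22 (Spearman's rho -0.21). Runs share arrays and samples, and this is a description. The share of windows below 0 in both mutant samples was 70.0% for single windows, 82.7% at 2 to 4 windows and 87.0% at 5 to 9. It was 88.2% in runs of 10 to 14 windows and 94.7% in runs of at least 50.

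**Figure D2:**
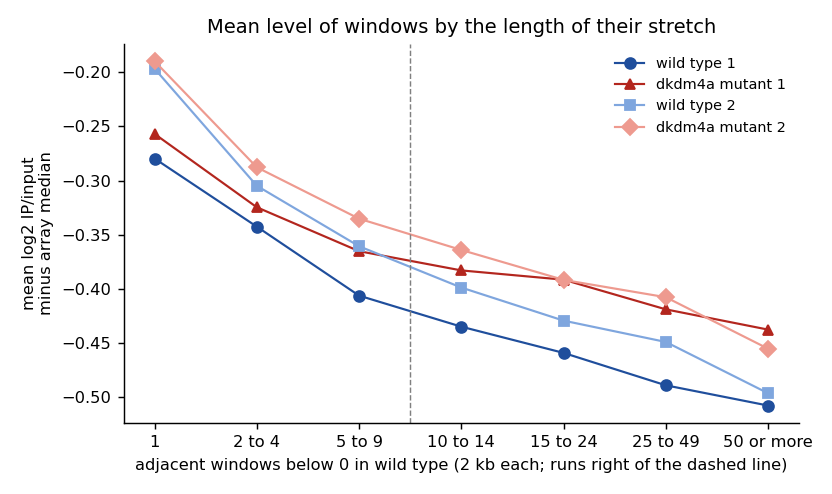
Mean log2 IP/input minus the array median (vertical axis) of windows below 0 in wild type, by the number of adjacent windows below 0 (horizontal axis), with 1 point per sample. The means of all 4 samples were lower in longer stretches, from -0.26 and -0.19 for single windows to -0.44 and -0.46 in the longest runs in the mutant samples. The wild type values set the stretch lengths.

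The 10 longest runs together spanned 694 windows, and 661 of these were below 0 in both mutant samples. Of the 10, 6 lay on 3R, 3 on 3L and 1 on 2L. Their mean levels lay between -0.61 and -0.33 over the 4 samples, so that none came near 0.

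The longest, 3R:23176001-23340000 with 82 windows and 685 probes, had levels of -0.49 and -0.51 in wild type replicates 1 and 2 and of -0.45 and -0.49 in mutant replicates 1 and 2. The genotypes overlapped, and 80 of its 82 windows were below 0 in both mutant samples. Its highest single windows reached 0.09 in mutant replicate 1 and 0.40 in mutant replicate 2. The second longest, 2L:18218001-18378000, had -0.54 and -0.41 in wild type and -0.41 and -0.38 in the mutant. Here wild type replicate 1 stood apart and the other 3 samples lay together.

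The runs 3L:17060001-17202000 and 3R:25146001-25288000 had 71 windows each. The run on 3L was at -0.52 and -0.49 in wild type and -0.44 and -0.47 in the mutant, with both mutant samples above both wild type samples. That on 3R was at -0.51 and -0.60 in wild type and -0.45 and -0.52 in the mutant, where mutant replicate 2 lay below wild type replicate 1. In 3R:24180001-24318000 the wild type samples were at -0.61 and -0.59 and the mutant samples at -0.51 and -0.48, the widest separation among the 10. This difference of 0.10 (standard error 0.05) had an adjusted p of 0.62 in limma.

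The run 3R:16196001-16332000 was at -0.54 and -0.51 in wild type and at -0.45 and -0.42 in the mutant. The run 3R:2340001-2472000, which ends at one of the intervals left out, was at -0.50 and -0.47 in wild type and -0.46 and -0.44 in the mutant. The run 3R:4900001-5030000 was the shallowest of the 10, at -0.42 and -0.38 in wild type and -0.36 and -0.33 in the mutant. In these 3 runs both mutant samples were above both wild type samples. The order was different in the runs of 3L from 22040001 to 22162000 and from 22324001 to 22446000. Their wild type samples were at -0.49 and -0.47 and at -0.51 and -0.48, and their mutant samples at -0.47 and -0.52 and at -0.46 and -0.59. There mutant replicate 2 was the lowest sample and mutant replicate 1 was close to or above the wild type. None of the 10 longest runs passed the adjusted threshold.

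**Figure D3:**
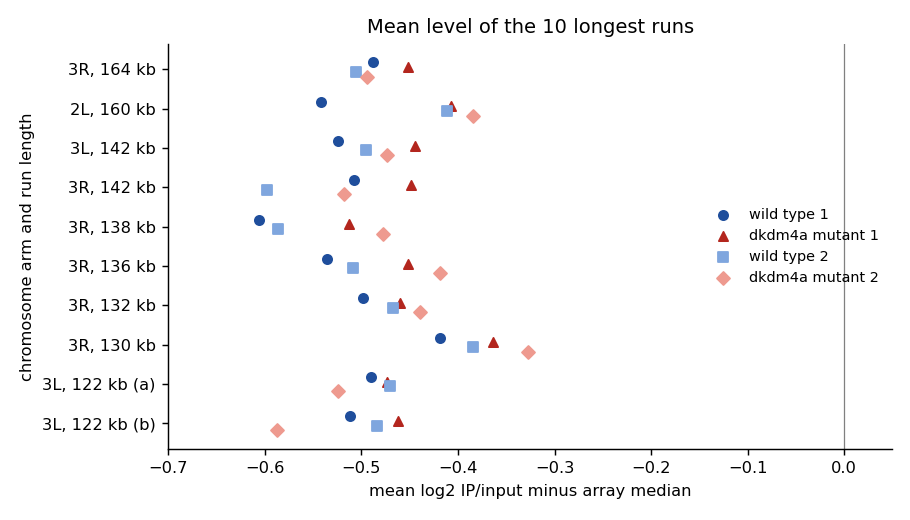
Mean log2 IP/input minus the array median (horizontal axis) of the 10 longest runs in each of the 4 samples, with arm and length on the vertical axis. All values lay between -0.61 and -0.33, the mutant was above wild type in both replicates in 8 of the 10 runs, and mutant replicate 2 was the lowest sample in the 2 runs of 122 kb on 3L.

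Among all runs, the lowest mutant levels were found in 3R:25080001-25138000, 3R:27290001-27332000 and 3L:1378001-1408000. The first had 29 windows and was at -0.59 and -0.64 in wild type and -0.60 and -0.67 in the mutant. The second was at -0.50 and -0.63 in wild type and -0.62 and -0.64 in the mutant. In the third the wild type samples were at -0.52 and -0.64 and the mutant samples at -0.59 and -0.65. In all 3 runs replicate 2 was below replicate 1 in each genotype, and the mutant was below wild type within each replicate.

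After the run on 3R described above, the highest mutant levels were those of 3R:26314001-26342000 and 2L:162001-182000. The first was at -0.39 and -0.23 in wild type and at -0.20 and -0.06 in the mutant. Its highest window, from 26340001 to 26342000, is the last of the run, and without it the differences of 0.19 and 0.16 became 0.14 and 0.13. The run on 2L was at -0.22 and -0.20 in wild type and at -0.24 and -0.04 in the mutant, where only mutant replicate 2 stood apart.

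Where the runs end, the level changed within 1 window in both genotypes. Of the 1338 ends of the 669 runs, 1156 had a measured window directly outside. The median over run ends changed from 0.17 in the window outside to -0.40 in the window inside in wild type replicate 1 and from 0.33 to -0.36 in wild type replicate 2, which is a description because the rule sets it. In mutant replicate 1 it changed from 0.17 to -0.34 and in mutant replicate 2 from 0.31 to -0.34. Further inside, the medians of the mutant were between -0.39 and -0.42 from the second to the tenth window. On the outer side they were below 0 again from the second window on, at -0.12 in mutant replicate 1 and -0.03 in mutant replicate 2. From 9 to 19 kb outside, between 31.5% and 41.4% of the windows were already part of another run.

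**Figure D4:**
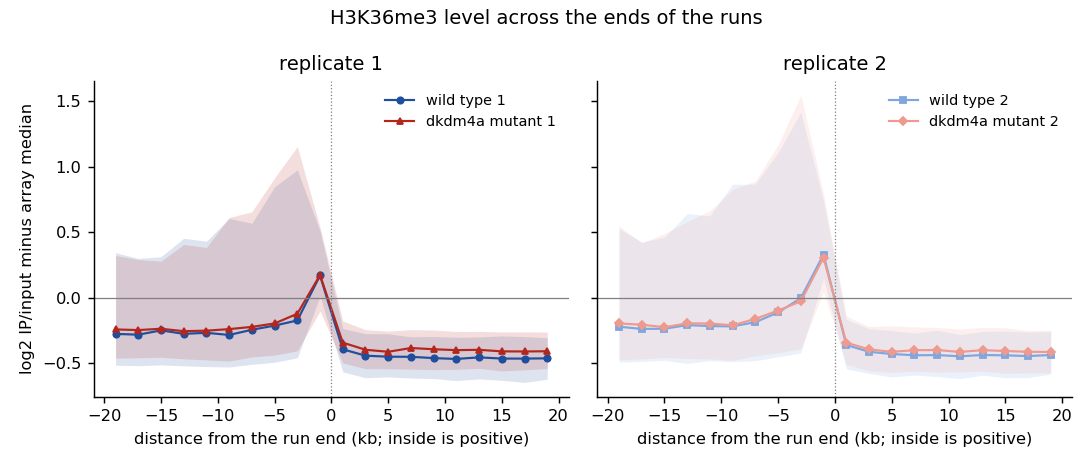
Median log2 IP/input minus the array median (lines, vertical axis) with the quartiles over windows (shaded) by distance from the run end in kb (horizontal axis, inside positive), for replicate 1 (left) and replicate 2 (right). In the mutant the median was 0.17 and 0.31 in the first window outside and -0.34 in the first window inside, and it stayed between -0.39 and -0.42 further inside.

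A border was counted as in place in the mutant when the window inside was below 0 and the window outside above 0. This was so for 60.6% of the measured borders in mutant replicate 1, for 69.5% in mutant replicate 2 and for 49.3% in both. The share was higher where the level outside was higher, up to the class of 0.5 to 1, and did not rise further above it. At the 623 borders where the wild type level outside was between 0 and 0.25, it was 31.1% in both mutant samples. It was 62.1% at the 211 borders with a level of 0.25 to 0.5, 77.1% at the 140 with 0.5 to 1, and 75.3% at the 182 with 1 or more. Of the measured borders, 53.9% thus lay at windows between 0 and 0.25. The mean level outside was there 0.03 and 0.18 in wild type replicates 1 and 2 and -0.02 and 0.12 in mutant replicates 1 and 2. The wild type level both set the borders and classed them, and a window picked just above 0 can lie below 0 in any other sample. No such share is given for single wild type samples, so the shares are not read as borders lost in the mutant. At the 182 steep borders, the mean levels outside were 2.02 and 2.39 in the mutant and those inside -0.25 and -0.24, against 2.04 and 2.42 outside and -0.28 and -0.25 inside in wild type. Wild type replicate 1 used alone gave 680 runs and wild type replicate 2 alone 615 runs, and the borders so chosen were in place in both mutant samples in 41.7% and 40.1%.

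Several runs were separated by a single window. This was so for 119 of the 664 pairs of neighbouring runs, and in 110 of them the window was measured. Its median level was 0.05 and 0.23 in wild type replicates 1 and 2 and -0.02 and 0.13 in mutant replicates 1 and 2. In 45 of the 110 windows (40.9%) both mutant samples were above 0, against 86.6% of all windows at or above 0 in wild type. The latter had medians of 2.03 and 2.35 in wild type replicates 1 and 2, so the 2 shares belong to unlike wild type levels. No difference in stability is read from them. Only 1 of the 110 had a wild type level of at least 1, the window 2L:3578001-3580000, which was chosen after its values were seen. It was at 1.54 and 1.85 in wild type and 1.64 and 1.61 in the mutant, so that it interrupted 2 runs in all 4 samples. Of the 110 windows, 75.5% held a probe that was not well above background in the input of at least 1 sample, against 23.4% of the run windows and 25.0% of the windows at or above 0. With probes well above background in the input only, there were 701 runs. The part of dim probes in these interruptions was not tested beyond this count.

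Inside the runs, the pattern of single windows was in part shared between samples. With the mean of each run set to 0, the levels of the 12900 windows were correlated with Pearson's r of 0.49 between the mutant samples and 0.40 between the wild type samples. The values were 0.47 between the genotypes in replicate 1 and 0.72 in replicate 2. Across both genotype and replicate, r was 0.37 between wild type replicate 1 and mutant replicate 2 and 0.43 between wild type replicate 2 and mutant replicate 1. A window that was high or low within its run in 1 sample thus tended to be so in the others, but only in part. The closest pair was that of the 2 genotypes in replicate 2. Adjacent windows were not alike in this way. With the run means removed, r between windows 1 apart was between -0.03 and -0.01 in the 4 samples, and without removing them it was between 0.06 and 0.13. Removing the mean of a short run by itself sets such a value slightly below 0. Most of the spread lay within runs, with an SD within runs of 0.22 and 0.24 in mutant replicates 1 and 2 and an SD of run means of 0.07 and 0.10. Mutant levels of run windows were also lower where the mutant input was brighter, with r of -0.30 in replicate 1 and -0.58 in replicate 2. The input is the denominator of the ratio, and how much of the likeness between samples follows from it was not tested.

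Between the genotypes, the difference over the run windows was small. The mutant mean was above that of wild type by 0.06 in replicate 1 and 0.04 in replicate 2 (mean 0.05), against an SD between replicates of 0.02 in wild type and 0.005 in the mutant. Both mutant samples were above both wild type samples. The exact permutation test over the 4 samples gave a two-sided p of 0.33, the smallest that 2 against 2 samples allow. The separation was lost with normexp background correction, without centring and with scaling by the median absolute deviation (exact permutation p of 1, 1 and 0.667). Over the other windows of the arms the differences were -0.01 and 0.003. Among these, the 7821 windows in stretches of 1 to 9 windows below 0 had differences of 0.03 and 0.02. Windows at or above 0 in wild type had -0.04 and -0.008. A small positive difference was thus found in the shorter low stretches too. The wild type values that chose the runs and the shorter stretches are part of these comparisons and favour a positive difference in both. When runs were chosen in the wild type sample of the other replicate, the difference over the runs was 0.06 for replicate 1 and 0.04 for replicate 2. That sample is of the same line on the same probes, so this choice can still favour a positive difference. When runs were chosen in the mean of the mutant samples, which works in the opposite direction, the difference was 0.04 and 0.02. The runs chosen in the mutant numbered 634 with 12004 windows. They shared 10466 windows with the wild type runs, or 81.1% of the wild type and 87.2% of the mutant run windows.

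With the processing used here, the difference was positive on each arm and array design. On 2L it was 0.07 in replicate 1 and 0.03 in replicate 2, on 3L 0.05 and 0.03, on the part of 3R on the first design 0.08 and 0.05 and on the part on the second design 0.06 and 0.05. By run length it was smallest at 10 to 14 windows, at 0.05 and 0.03, and was 0.07 and 0.04 at 50 or more windows. Its direction depended on the processing. With normexp, another background correction, it was 0.18 in replicate 1 and -0.14 in replicate 2, and without centring it was 0.03 and -0.005. Log2 IP/input is set to the median of each array, so a small shift shared by all low windows cannot be told apart from a different shape of the distribution on the array.

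Of the 669 runs, 436 were higher in the mutant in both replicates and 46 were lower in both. Over all runs and blocks these shares were 42.5% and 30.5%. Both mutant samples were above both wild type samples in 289 runs (43.2%) and below them in 22 (3.29%), against 16.8% and 6.46% of all runs and blocks. The rule used the wild type values of this contrast, and nothing is read from these counts. The median difference over the runs was 0.05, against a median SD between replicates of 0.04 in either genotype. The input differed little over the runs, by -0.02 in both replicates. Over the 595 runs whose input differed by less than 0.1 in each replicate, the mean differences in IP/input were 0.06 and 0.03. In 31 runs the input was lower in the mutant by at least 0.1 in both replicates, and 25 of these were higher in IP/input in both. In the 7 runs with higher input this was so for 1. Across the 669 runs, Pearson's r between the difference in IP/input and that in input was -0.13 in replicate 1 and -0.38 in replicate 2. The part of the input in the differences was not tested.

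**Figure D5:**
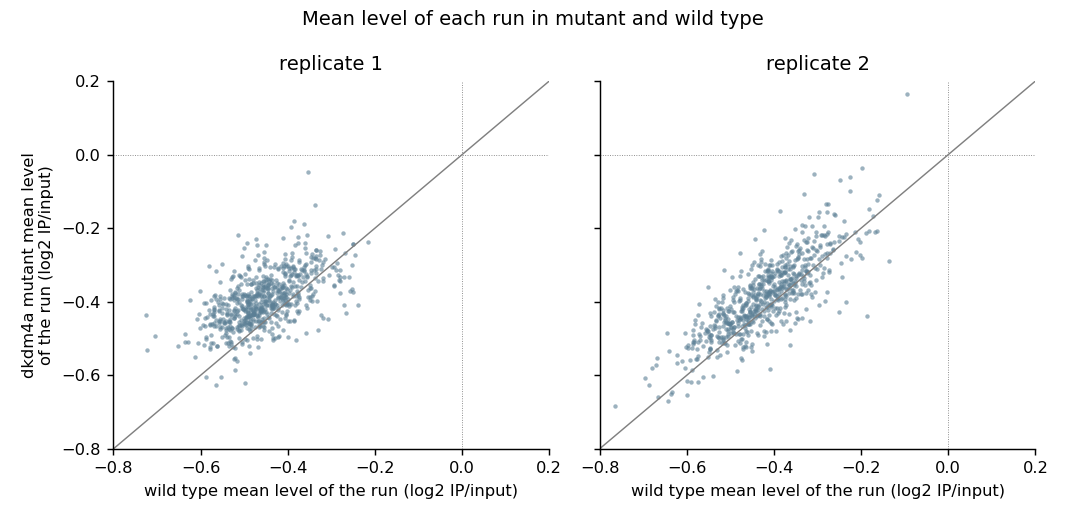
Mean log2 IP/input minus the array median of each of the 669 runs in *dkdm4a* mutant (vertical axis) against wild type (horizontal axis), for replicates 1 and 2, with the line of equal values. More runs lay above the line than below it in both replicates, with median differences of 0.06 and 0.03, and 1 run was above 0 in mutant replicate 2.

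With limma and Benjamini-Hochberg adjustment at 0.05, 2 of the 669 runs passed as raised in the mutant (0.299%) and 0 as lowered. Over all 2415 runs and blocks, 0.248% passed in either direction. At an unadjusted p under 0.05, 81 runs were higher and 1 was lower in the mutant, against 4.76% and 1.08% of all regions. The rule used the wild type values of this contrast too. With the replicate as a block, 73 runs passed as raised and 1 as lowered (10.9% and 0.149%, against 11.2% and 10.7% of all regions). With a common variance for all levels in place of limma's trend, no run passed.

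The run 3R:24090001-24114000 with 12 windows was raised by 0.23 (standard error 0.06, adjusted p = 0.026 from limma). Its levels were -0.57 and -0.44 in wild type and -0.32 and -0.23 in the mutant, and the genotypes did not overlap. Its highest window held mostly dim IP probes, and without it the differences of 0.25 and 0.21 became 0.10 and 0.10. The input of the run was lower in the mutant by -0.14 and -0.21, and its part in the result was not tested. The run 3R:26954001-26982000 with 14 windows, which was named after its values were seen, was raised by 0.15 (standard error 0.04, adjusted p = 0.034 from limma). It was at -0.70 and -0.68 in wild type and at -0.49 and -0.58 in the mutant, and stayed far below 0. Its wild type mean of -0.69 was the lowest of the runs on 3R. Its input differed by 0.006 and -0.02, and without its highest window the differences were 0.20 and 0.10. No run passed without wild type replicate 1, mutant replicate 1 or mutant replicate 2, and 5 passed without wild type replicate 2. The adjusted p-values of both named runs use the wild type values that chose the runs, which favours a rise, most so in the deepest runs.

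Of the other runs with large differences, 3L:11278001-11304000 was at -0.51 and -0.33 in wild type and at -0.27 and -0.11 in the mutant. Its difference of 0.23 did not pass (adjusted p = 0.095 from limma), and its input was lower in the mutant by -0.18 and -0.14. In the other direction, the largest difference was that of 2L:4486001-4514000, at -0.35 and -0.19 in wild type and -0.39 and -0.44 in the mutant (adjusted p = 0.61 from limma). Most of it came from replicate 2, with -0.25 against -0.04 in replicate 1. The runs 3L:22014001-22034000 and 2L:5772001-5794000 followed with mean differences of -0.10 each. Over the 669 runs the differences lay between -0.15 and 0.28.

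Single windows could stand out where the mean of a run did not. Above 0 in both mutant samples were 199 of the 12900 run windows (1.54%), spread over 166 runs, and 503 runs held none. Of the 199 windows, 38 were the first or last of their run (19.1%, against 10.4% of all run windows). Above 0.5 in both mutant samples were 4 windows. In limma, 13 run windows passed as raised (0.101%, against 0.354% of all 57266 windows) and 1 as lowered (0.00775%, against 0.173%). At an unadjusted p under 0.05 there were 428 higher and 102 lower run windows, against 3.74% and 2.07% of all windows. With the replicate as a block, 205 run windows were raised and 36 lowered (1.59% and 0.279%, against 5.40% and 3.73%). Since the wild type values of this contrast also chose the run windows, raised calls are favoured over lowered ones. This holds for the adjusted p-values of the windows named below too.

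The window 3R:24108001-24110000, the tenth of a run of 12, passed as raised with the highest fitted difference of the 13 (adjusted p = 2.70e-11 from limma), but its level rested mostly on dim probes. Of its 7 probes, 2 were well above background in the IP channel in each sample, and in the input the share was 1 in both wild type samples and 0.571 and 0.429 in the mutant samples. The listed level was -0.79 and 0.08 in wild type and 1.12 and 1.55 in the mutant, and its input was lower in the mutant by -1.53 and -1.88. Over the 2 probes that were well above background in both channels of all samples, the level was -0.73 and -0.41 in wild type and -0.34 and -0.29 in the mutant. The mutant samples were still above the wild type samples there, by 0.39 and 0.12 within replicates, and all 4 values were below 0. The size of the change in this window is therefore not given. The windows before and after it were at -0.63 and -0.55 in wild type and at -0.69 and -0.26 in the mutant.

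The window 3R:6782001-6784000, the last of a run of 30, was at -0.35 and -0.79 in wild type and 0.64 and 0.88 in the mutant (change 1.33, standard error 0.20, adjusted p = 2.33e-08 from limma). All 6 of its probes were higher in the mutant in both replicates. Its input was higher in the mutant, by 0.32 and 0.14, which lowers the ratio. Over the 4 probes above background in both channels of all samples the differences were 1.01 and 1.53. The window before it was at -0.35 in wild type and 0.16 in the mutant. The window 3R:3064001-3066000, the last of a run of 12, was at -0.43 and 0.003 in wild type and 0.99 and 1.16 in the mutant (change 1.29, standard error 0.21, adjusted p = 2.64e-06 from limma). All 9 of its probes were well above background in both channels of all samples and higher in the mutant in both replicates, and the input differed by -0.06 and 0.16. The window before it was at -0.49 in wild type and 0.05 in the mutant, and the one after it, outside the run, at 0.07 and 0.35. At these 2 run ends the mutant mean of the window before was thus also higher, but neither of those windows passed limma as raised. Directly outside the run that ends at 6784000 no window had a value.

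Of the 13 raised windows, 8 had an input lower in the mutant by at least 0.5 in both replicates, and in 5 the input differed by less than 0.5 in both. The window 3L:13272001-13274000 was at -0.48 and -0.20 in wild type and 0.61 and 0.87 in the mutant, and its input was lower in the mutant by -1.24 and -1.10. Of its 8 probes, 4 were well above background in the IP channel in both replicate 1 samples, 2 in wild type replicate 2 and 3 in mutant replicate 2. Over the 2 probes above background in both channels of all samples the difference was 0.23 in replicate 1 and -0.45 in replicate 2, so that its direction was not kept. The window 3R:17234001-17236000 was at -0.49 and -0.30 in wild type and 0.31 and 0.63 in the mutant (change 0.87), with an input lower by -0.98 and -0.86. Of its 6 probes, 4 were well above background in the IP channel in replicate 1 and 3 in replicate 2, and over the 3 that were so in both channels of all samples the differences were 0.47 and 0.39. The 1 window that was lowered, 3L:5060001-5062000, was at 0.05 and -0.08 in wild type and -1.22 and -0.76 in the mutant (change -0.98, standard error 0.17, adjusted p = 1.69e-05 from limma). It lay just below 0 in wild type, and its input was higher in the mutant by 0.60 and 0.56. Over the 6 of its 8 probes above background in all samples the differences were -0.89 and -0.25. The part of the input in these results was not tested. A difference in input of more than 0.5 in both replicates was found in 133 run windows (1.03%) and in 369 of the other windows of the arms (1.76%).

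These calls rested on the estimate of the spread and on single samples. None of the 6 windows passed without the trend of the variance or with loess, and with normexp 3R:3064001-3066000 alone passed. Without wild type replicate 1, the windows from 24108001 (adjusted p = 0.11 from limma), 3064001 (0.22), 13272001 (0.23) and 17234001 (0.48) no longer passed. Without mutant replicate 2 this was so for those from 13272001 (0.084) and 17234001 (0.60), and without mutant replicate 1 for the lowered window from 5060001 (0.24). The window from 6782001 passed with any 1 sample left out.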

How the data were processed

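H3K36me3 ChIP-chip of 2 wild type and 2 *dkdm4a* mutant samples was analysed on 8 arrays. The files that the authors deposited hold intensities of each spot from Feature Extraction 10.5.1.1, which are background-subtracted, detrended and scaled between dyes, with small positive surrogates for very low values. They also deposited log2 ratios of the same arrays, used as an alternative, and the submitters' processing notes name limma. Log2 IP/input was computed from the processed intensities of genomic probes without outlier flags and centred on the median of each array, which left 475027 probes with a value in all samples. Windows of 2 kb were averaged and runs found as described in the report. Windows, and runs together with blocks of 10 other windows, were fitted with limma 3.58.1 (trend, no block) in R 4.3.3, with adjustment over the whole table. The replicate numbers pair the samples, since file headers show both genotypes of a replicate scanned on the same day, and the difference between replicates was correlated between genotypes (Pearson's r of 0.65 over 57266 windows). The limma p-values rest mainly on a spread estimated over all regions of the table and set by their mean level. The spread between the 2 samples a group of the region itself enters little, and this number of samples limits the precision. Python 3.11.15 with numpy 2.4.6, pandas 2.3.3, scipy 1.17.1 and matplotlib 3.10.9 was used, and the steps were tested on simulated data.

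Named regions are the 10 longest runs, the 3 with the highest and the 3 with the lowest mutant level, the 3 with the largest difference in each direction, and the 5 largest changes in each direction among run windows with at least 5 probes that passed. In the lowered direction 1 window qualified. The rule, the runs and the tests were chosen with earlier results of these data known. Alternatives were normexp (offset 50), loess (span 0.3), no centring, scaling by the median absolute deviation, the deposited log2 ratios, probes bright in the input, outliers kept, 5 probes per window, windows moved by 1 kb, runs of 8 or 15 windows, runs across 1 unmeasured window, the replicate block, no trend, and each sample left out. Runs chosen in the mutant samples and window values over probes above background in both channels were added after seeing the data. No gene or sequence was placed on the runs.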

Additional observations from a re-analysis of the deposited data

How the results depend on the processing

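The mean difference between the genotypes over run windows was negative in replicate 2 with normexp (0.18 and -0.14 in replicates 1 and 2) and without centring (0.03 and -0.005), and under the other processing alternatives it was positive in both. All but at most 5 runs were below 0 in both mutant samples under each alternative tried. With normexp the mutant level of run windows was -0.52, the difference over runs chosen in the other replicate 0.0070 and the input difference -0.030, and 23 windows were raised, 0 lowered and 0 runs raised. With loess these were -0.30, 0.030, 0 and 0 windows and 0 runs, and 35.98% of borders were in place. Without centring they were -0.88, 0.011, 49 and 27 windows, with 4 runs lowered and 74.6% of borders. Scaling by the median absolute deviation gave -0.41, 0.028, 7 raised windows and 0 runs, and the deposited log2 ratios -0.41, 26 raised and 4 lowered windows and 4 runs. Probes bright in the input gave -0.44, 0 lowered windows, 4 runs and 59.8% of borders. Over probes above background in both channels of all samples, chosen after seeing the data, the change in 3L:13272001-13274000 was -0.11. Outliers kept gave 2 lowered windows. Windows moved by 1 kb gave 21 raised and 4 lowered windows and 0 runs. Runs of at least 8 windows had a level of -0.39, with 24 raised and 2 lowered windows and 4 runs raised. Of at least 15 windows there were 368 runs, all 368 below 0 in both mutant samples, with a level of -0.41 and 0 runs raised. Without the trend of the variance, 0 windows were raised, 0 were lowered and 0 runs were raised. The causes of these changes were not tested, apart from the fewer or more windows that the run length itself selects.

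In the paired fit, with the replicate as a block, 205 run windows were raised and 36 lowered, and 73 runs were raised and 1 lowered. That fit has 1 residual degree of freedom.

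With 1 sample left out in turn, the mutant level ranged from -0.42 to -0.39. Borders in place in both mutant samples were 40.1% without wild type replicate 1 and 41.7% without wild type replicate 2. With a mutant sample left out, borders were counted in the other mutant sample alone, which is a looser count. This gave 69.5% without mutant replicate 1 and 60.6% without mutant replicate 2. Raised windows ranged from 1 (without wild type replicate 1) to 26 (without wild type replicate 2), lowered windows from 0 to 5 and raised runs from 0 to 5. Weak IP probes lie close to background, mostly in replicate 2, and limit the precision of low ratios.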
